A study of Rattus norvegicus with 8 samples.

Results

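The genes described here make, package, remove and sense GABA, the main inhibitory transmitter of the cerebral cortex. They are Gad1, Gad2, Slc32a1, Slc6a11, Abat, Gabbr1 and Gabbr2, and every probe set assigned to exactly 1 of these symbols in the platform's annotation was taken. This gave 15 probe sets of 7 genes, out of 31042 probe sets on the array that are not controls and 14217 genes with a symbol of their own there. A probe set is a group of short oligonucleotides on the array that reads 1 transcript or a few transcripts of a gene.

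In cortical interneurons the enzymes encoded by Gad1 (GAD67) and Gad2 (GAD65) make GABA from glutamate, and the vesicular transporter encoded by Slc32a1 loads it into synaptic vesicles. After release, transporters such as the astrocytic one encoded by Slc6a11 (GAT-3) clear GABA from the extracellular space, and the mitochondrial transaminase encoded by Abat breaks it down. Gabbr1 and Gabbr2 encode the paired subunits of the GABA-B receptor, a G protein-coupled receptor that lowers transmitter release and opens potassium channels. Its first subunit binds GABA and its second couples to the G protein.

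The animals were male rats of the outbred Sprague-Dawley strain, and RNA was taken from their frontal cortex. They weighed about 200 g at the start. The antipsychotic olanzapine, which blocks dopamine and serotonin receptors, was injected into the peritoneum at 2 mg/kg/day for 21 days, and the other group received saline over the same 21 days. Of the 20 animals in each group, 4 per group were measured, 1 array each: olanzapine 9, 14, 18 and 19, and saline 14, 15, 17 and 19, named by group and animal number. The design asks which cortical transcripts differ after repeated olanzapine. The interval between the last injection and dissection is not given in the sources used here. The tissue holds many cell types, so fewer cells of a type and less RNA per cell cannot be told apart.

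The deposited values are linear intensities, with array medians of 170 to 189 in olanzapine and 159 to 191 in saline. Tests used log2(intensity + 63.4), where the offset is the first quartile of the deposited values (the 25th percentile), and a limma model over the 18625 probe sets brighter on average than the 40th percentile. On this scale the change of a dim gene is understated. Of the GABA probe sets, 11 passed this filter, from 6 genes, and 4 did not, including the only one for Slc6a11. Of the markers of excitatory cortical neurons, 19 of 21 genes on the array were left by the filter, and of the interneuron markers 22 of 27. Of the meningeal and choroid plexus markers 11 of 14 were left. Over the whole array 10123 of 14217 genes were left, so these counts alone do not show that a cell type was present.

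After adjustment no GABA probe set passed the limma test. By limma with Benjamini-Hochberg adjustment at 0.05, 0 of the 11 tested GABA probe sets and 0 of all 18625 (0%) were called, and the smallest adjusted p on the array was 0.317. At an unadjusted p under 0.05 there were 2 of 11, against 1549 of 18625 (8.32%). The pair in question were the brightest probe sets of Gabbr1 and Gabbr2, both with lower values in olanzapine, a direction in which 3.73% of all tested probe sets had such a p. These were also the 2 of 11 whose groups did not overlap, in a direction shared by 385 of all tested probe sets (2.07%). Among the 11, 4 differences were positive and 7 negative, with a median of -0.023, while 56% of all tested probe sets were positive, with a median of 0.027. After median centring of the arrays 3 of the 11 were positive, against 45.0% of all tested probe sets, and without saline 15 there were 7 of 11, against 54.5%.

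Gabbr2, the subunit that couples to the G protein, showed the clearest separation. On probe set 1387383_at its intensity was 5765, 5750, 6343 and 5776 in olanzapine 9, 14, 18 and 19, against 7003, 7533, 7351 and 6661 in saline 14, 15, 17 and 19. Every olanzapine array lay below every saline array, and olanzapine 18 stood apart from 3 olanzapine arrays that were nearly equal. The means were 5908 ± 290 in olanzapine and 7137 ± 386 in saline (SD, n = 4 each). This is a log2 difference of -0.27 (SE 0.08), or 0.83-fold, with a 95% interval of 0.739-fold to 0.931-fold and it did not pass the adjusted limma test (adjusted p 0.373). Leaving out each array in turn gave differences of -0.30 to -0.24. Without saline 19 the adjusted p was 0.0927, in a fit in which 107 probe sets of the whole array were called.

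The second Gabbr2 probe set, 1368952_at, was dim. Its intensity was 173, 196, 102 and 161 in olanzapine 9, 14, 18 and 19, and 146, 175, 168 and 146 in saline 14, 15, 17 and 19. The groups overlapped, with a log2 difference of -0.020 (SE 0.20). The 2 probe sets of Gabbr2 correlated at r = -0.11 over the 8 arrays, so the dim one did not follow the animals in the way the bright one did.

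Gabbr1, the GABA-binding subunit, had 5 probe sets, of which 4 were tested. The brightest, 1375720_at, was at 4848, 4849, 4922 and 5211 in olanzapine 9, 14, 18 and 19, against 5476, 5748, 6227 and 5350 in saline 14, 15, 17 and 19. No values overlapped, though olanzapine 19 and saline 19 were close. The means were 4958 ± 173 in olanzapine and 5700 ± 388 in saline (SD, n = 4 each). The log2 difference was -0.20 (SE 0.08), or 0.872-fold, with a limma adjusted p of 0.526, and it ran from -0.23 without saline 19 to -0.15 without saline 17.

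The remaining Gabbr1 probe sets did not share this separation. Probe set 1388039_a_at, whose suffix marks probes common to several transcripts of the gene, was at 1928 ± 160 in olanzapine and 1970 ± 218 in saline (SD, n = 4 each), a log2 difference of -0.028 (SE 0.11). The dim probe set 1388030_a_at ran from 153 to 225 in olanzapine and from 165 to 213 in saline, and 1369372_at from 85.6 to 147 in olanzapine and from 86.0 to 199 in saline. Their log2 differences were 0.018 (SE 0.18) and -0.049 (SE 0.23). Between pairs of the 4 tested Gabbr1 probe sets r over the 8 arrays ran from -0.34 to 0.32. The probe set removed by the filter, 1369371_a_at, was listed at 34.1 to 89.2 in olanzapine and 13.8 to 47.1 in saline.

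**Figure D1:**
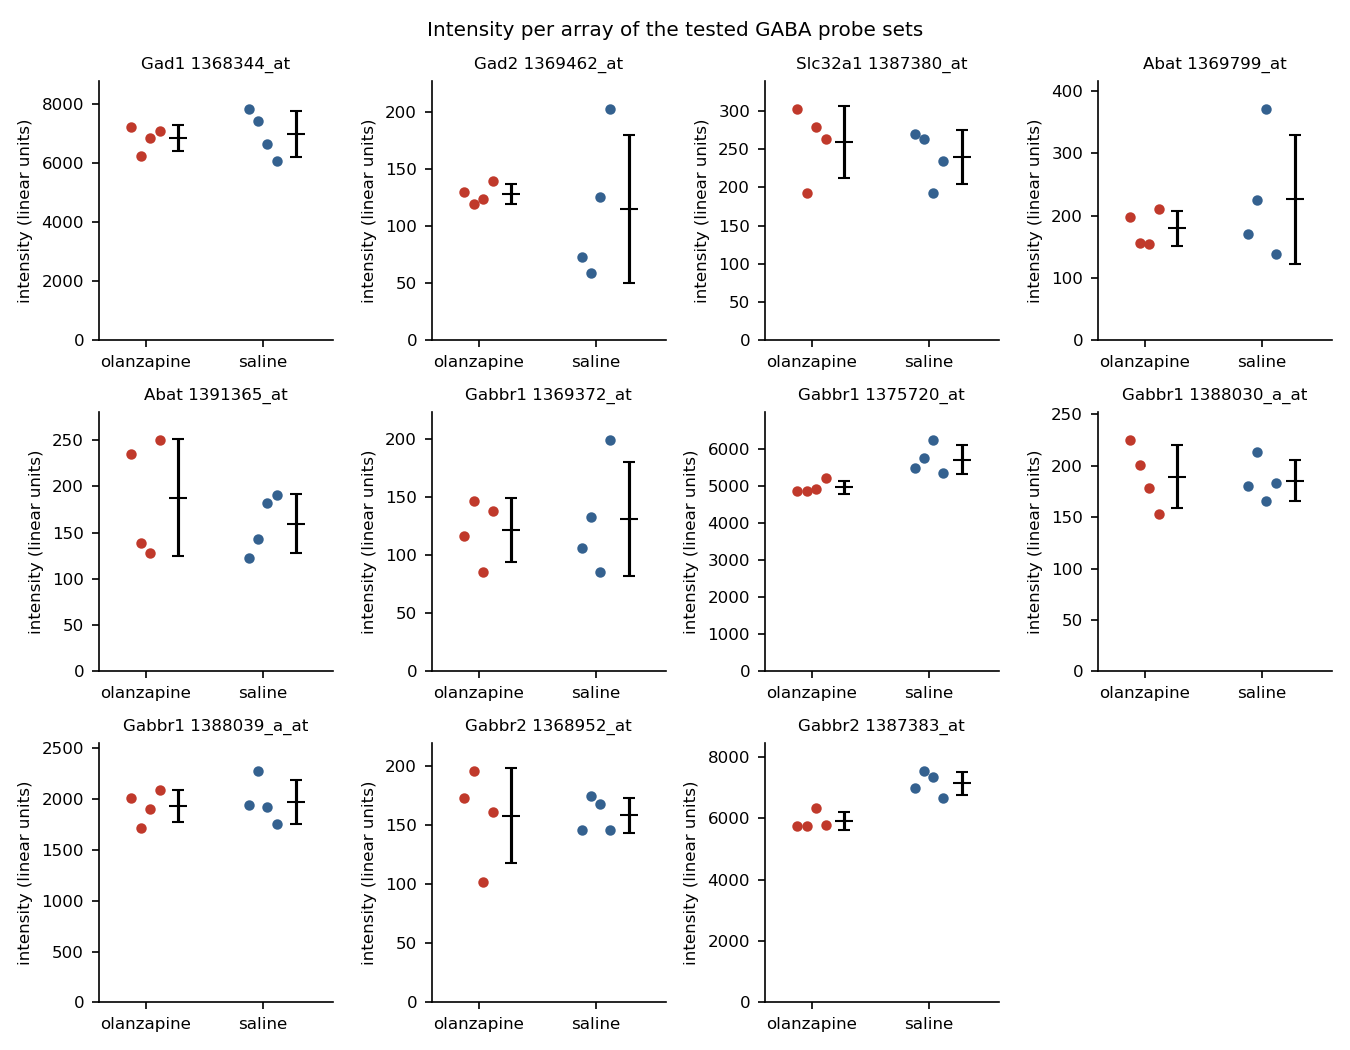
Intensity in linear units of the 11 tested GABA probe sets, 1 panel each with its axis from 0, with 1 point per array, olanzapine left of saline, and the mean with SD beside the points (n = 4 each). Only Gabbr2 1387383_at and Gabbr1 1375720_at have groups that do not overlap, and Gad2 spreads from 58.9 to 202 in saline.

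Both separated probe sets lay among the brightest 5% of tested probe sets, together with Gad1. Of these 932 probe sets, 827 had a negative difference, with a median of -0.15. Among them 173 (18.6%) had olanzapine values that all lay below saline, and 358 (38.4%) had a negative difference at an unadjusted p under 0.05. A more negative difference than that of Gabbr2 was found in 155 of the 932, and than that of Gabbr1 in 351. The intensity at the 98th percentile of an array was 5474 to 5735 in olanzapine and 5618 to 6287 in saline. Control RNAs of bacterial and phage sequence, spiked in before hybridization, had a mean log2 value of 12.36 ± 0.29 in olanzapine and 12.96 ± 0.23 in saline over 18 probe sets (SD, n = 4 each, exact two-sided permutation p = 0.0571). Their part in the GABA-B differences was not tested.

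Under scalings that equalise bright probe sets between arrays, the GABA-B differences kept their sign and became smaller. After quantile normalization Gabbr2 1387383_at differed by -0.14 (SE 0.06, limma adjusted p 0.776) and Gabbr1 1375720_at by -0.084 (SE 0.06, limma adjusted p 0.850), and the brightest 5% had a median of 0.0021. Both groups then overlapped for both genes, so that 0 of 11 GABA probe sets were separated downward, against 1.72% of all tested probe sets. At an unadjusted p under 0.05 Gabbr2 was 1 of 11 with a negative difference, against 2.6% of all. Cyclic loess gave -0.14 for Gabbr2 and -0.089 for Gabbr1. In the quantile-normalized values, 77 of the 932 brightest probe sets had a more negative difference than Gabbr2.

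**Figure D2:**
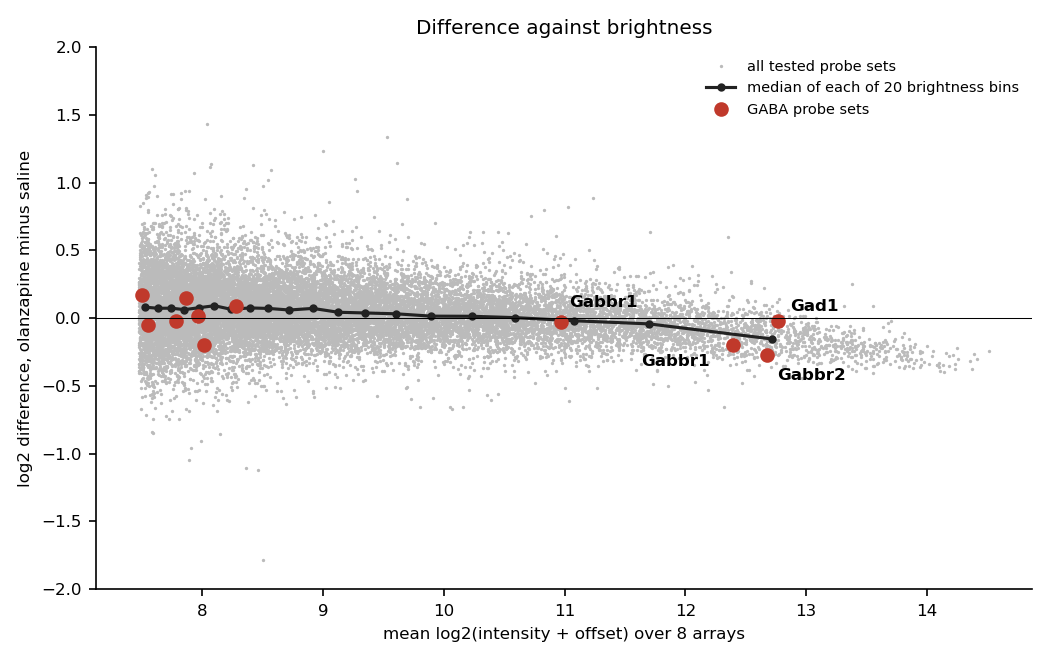
Log2 difference, olanzapine minus saline, against mean log2(intensity + 63.4) over the 8 arrays for all 18625 tested probe sets (grey), the median of each of 20 brightness bins (black line) and the 11 GABA probe sets (red). The line runs from 0.080 in the dimmest bin to -0.15 in the brightest, where the bright probe sets of Gabbr1 and Gabbr2 lie below it and Gad1 above it.

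The balance of the receptor subunits was compared within each array, where the factor that scales an array cancels. Log2 Gabbr2 minus log2 Gabbr1 was 0.25 ± 0.09 in olanzapine and 0.32 ± 0.06 in saline (SD, n = 4 each), a difference of -0.072 with overlapping groups (exact two-sided permutation p = 0.286). Only the difference between groups can be read here, because the brightness of a probe set depends on its probes as well as on its transcript. The smallest p that 4 against 4 arrays can give is 0.0286. In this family of 4 within-array comparisons the Benjamini-Hochberg value was 0.629.

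The sequences around the RefSeq starts of both receptor genes are given because these genes had the pair of separated probe sets, from 250 bases before the start to 50 after it, 5′ to 3′ on the gene's strand (RefSeq, build GRCr8).
Gabbr1, chr20:1499187-1499486, - strand: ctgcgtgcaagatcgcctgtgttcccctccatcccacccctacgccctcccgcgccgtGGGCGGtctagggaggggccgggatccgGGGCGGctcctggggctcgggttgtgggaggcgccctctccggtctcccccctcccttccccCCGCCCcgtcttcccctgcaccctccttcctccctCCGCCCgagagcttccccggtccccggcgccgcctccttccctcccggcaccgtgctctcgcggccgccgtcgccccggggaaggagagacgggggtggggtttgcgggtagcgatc
Gabbr2, chr5:66083646-66083945, - strand: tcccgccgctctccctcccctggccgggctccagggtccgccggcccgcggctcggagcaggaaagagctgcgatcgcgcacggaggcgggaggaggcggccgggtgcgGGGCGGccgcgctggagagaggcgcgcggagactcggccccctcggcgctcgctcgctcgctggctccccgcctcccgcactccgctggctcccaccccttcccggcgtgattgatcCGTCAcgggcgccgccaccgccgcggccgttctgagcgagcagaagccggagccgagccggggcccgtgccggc
Capitals mark matches, on either strand, to the letters GGGCGG, which form a GC box. They also mark the half-site of a cyclic AMP response element, TGACG, on either strand. The last motif searched on both strands was the TATA box, TATAAA. No matches overlapped each other. The Gabbr1 window held 4 GC boxes and no other motif, and the Gabbr2 window 1 GC box and 1 TGACG match. Of 33469 rat promoter windows of this length, 33.1% held a GC box, 21.2% the TGACG letters and 14.2% the TATAAA letters. GC content was 75.0% for Gabbr1 and 78.7% for Gabbr2, against a median of 51.7% over all windows. These matches describe the letters and not bound sites.

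Gad1, the larger of the GABA-making enzymes, was nearly equal between groups. Its bright probe set 1368344_at was at 7227, 6241, 6833 and 7094 in olanzapine 9, 14, 18 and 19, and at 7815, 7414, 6649 and 6058 in saline 14, 15, 17 and 19. The saline arrays enclosed the olanzapine arrays, with saline 14 highest and saline 19 lowest of all. The means were 6849 ± 437 in olanzapine and 6984 ± 784 in saline (SD, n = 4 each). The 95% interval of the fold was 0.859 to 1.13, so larger shifts in either direction lay outside it as deposited. The log2 difference was -0.023 as deposited and ran from -0.089 to 0.033 with 1 array left out. It was 0.12 (SE 0.07, limma adjusted p 0.803) after quantile normalization and 0.11 after cyclic loess.

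A second Gad1 probe set, 1370760_a_at, was removed by the filter and ran from 56.1 to 126 in olanzapine and from 44.8 to 168 in saline. In the fit without a filter its log2 difference was 0.10 (SE 0.27). It was highest in saline 19, the array in which the bright Gad1 probe set was lowest.

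Gad2, which encodes the form of the enzyme found mostly at nerve terminals, was read by 1 dim probe set, 1369462_at, just above the filter. It was at 130, 119, 124 and 139 in olanzapine 9, 14, 18 and 19, and at 73.4, 58.9, 126 and 202 in saline 14, 15, 17 and 19. The olanzapine arrays were close to each other and lay inside the range of the saline arrays. The means were 128 ± 8.71 in olanzapine and 115 ± 64.9 in saline (SD, n = 4 each), a coefficient of variation of 6.79% in olanzapine and 56.4% in saline. The log2 difference was 0.17 (SE 0.25, limma adjusted p 0.899), and it ran from 0.010 without saline 15 to 0.38 without saline 19. No test of the difference in spread was made.

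Slc32a1, the vesicular GABA transporter gene, was at 302, 193, 279 and 264 in olanzapine 9, 14, 18 and 19, and at 269, 263, 193 and 234 in saline 14, 15, 17 and 19. One array in each group was low, olanzapine 14 and saline 17, and the groups overlapped. The means were 260 ± 47.1 in olanzapine and 240 ± 34.9 in saline (SD, n = 4 each). The log2 difference was 0.087 (SE 0.17, limma adjusted p 0.925), with a 95% interval of 0.823-fold to 1.37-fold. It ran from 0.0080 without saline 17 to 0.19 without olanzapine 14, and was 0.037 after quantile normalization.

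**Figure D3:**
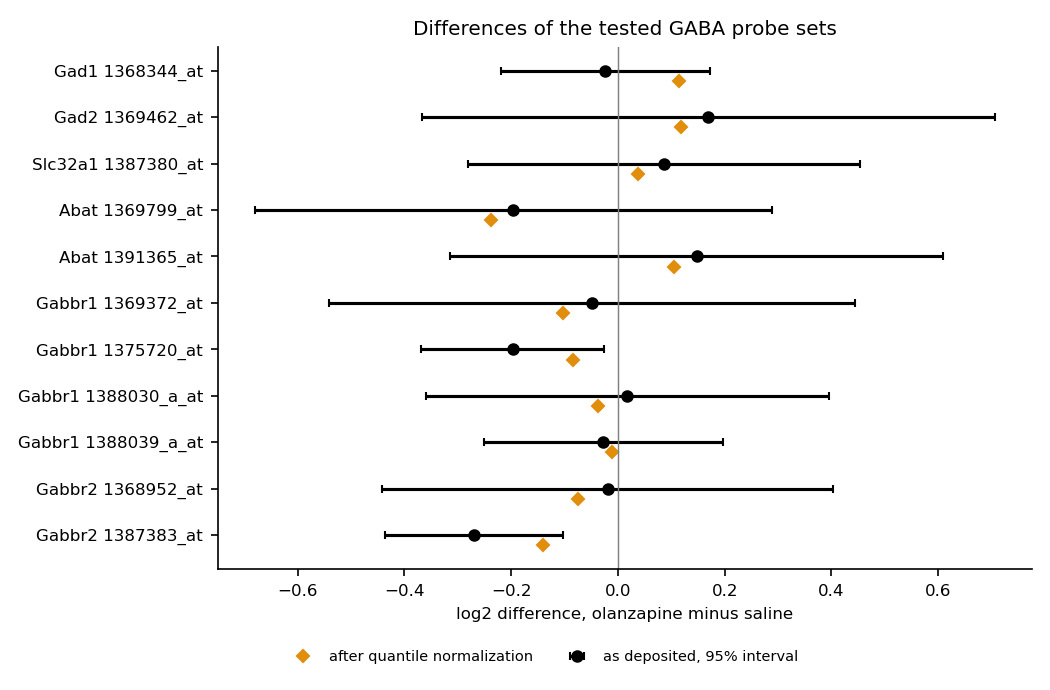
Log2 difference, olanzapine minus saline, of the 11 tested GABA probe sets as deposited (black points, bars 95% intervals of the limma model) and after quantile normalization (orange diamonds). Only the intervals of Gabbr1 1375720_at and Gabbr2 1387383_at leave out 0, before any adjustment over the array.

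Within arrays, log2 Gad2 minus log2 Gad1 was higher in olanzapine by 0.19 (exact two-sided permutation p = 0.486), with an SD of 0.056 in olanzapine and 0.66 in saline (n = 4 each). Leaving out saline 15 gave 0.0029 and leaving out saline 19 gave 0.47. After quantile normalization the value was 0.0029. Log2 Slc32a1 minus log2 Gad1 was higher by 0.11 as deposited (exact two-sided permutation p = 0.314). After quantile normalization the sign of the Slc32a1 comparison turned to -0.078. The groups overlapped in both, and the adjusted values over the 4 comparisons were 0.648 and 0.629.

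Among animals, Gad1 and Slc32a1 tended to be high in the same arrays, while Gad1 and Gad2 ran largely in opposite directions among the saline arrays only. Within the olanzapine group, Gad1 and Gad2 were both lowest in olanzapine 14. There Gad2 spanned log2 values of 7.51 to 7.66, against 6.93 to 8.05 in saline. With each group's mean removed, Gad1 and Slc32a1 had r = 0.70 over 8 arrays (exact permutation p = 0.0532) and rho = 0.83 (exact permutation p = 0.0154), with adjusted values of 0.106 and 0.0615 over the 4 pairs compared. Without the 2 arrays farthest from the median of Gad1, r was 0.78. After quantile normalization it was 0.91 and after cyclic loess 0.88, with exact permutation p-values of 0.00146 and 0.00573. All of these p-values came from pairings over all 8 arrays, which also exchange deviations between groups of unlike spread. With pairings drawn within each group only, a choice made after the first values were seen, the exact permutation p as deposited was 0.0538 (adjusted 0.215). Groups of 4 are too small for a value within each.

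Over both groups together, Gad1 and Gad2 had r = -0.76 (exact permutation p = 0.0236, adjusted 0.0945) and rho = -0.67 (exact permutation p = 0.0831, adjusted 0.166), and r = -0.71 without the 2 farthest arrays. With pairings within each group only, the exact permutation p was 0.137 (adjusted 0.274). The other p-values of this paragraph used pairings across both groups. The relation rested in part on saline 19, without which r was -0.45, and after quantile normalization r was -0.63 (exact permutation p = 0.0921). It was larger in size without olanzapine 14, at -0.91 (exact permutation p = 0.00853), and after median centring, at -0.84 (exact permutation p = 0.018). Saline 19 also had the highest array median, 191, and the lowest 98th percentile among saline arrays, 5618, and the part of this in the relation was not tested. Gad2 and Slc32a1 had r = -0.28 (exact permutation p = 0.486). For Gabbr1 and Gabbr2 r was 0.47 (exact permutation p = 0.241) as deposited, 0.12 after quantile normalization and 0.82 after median centring.

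**Figure D4:**
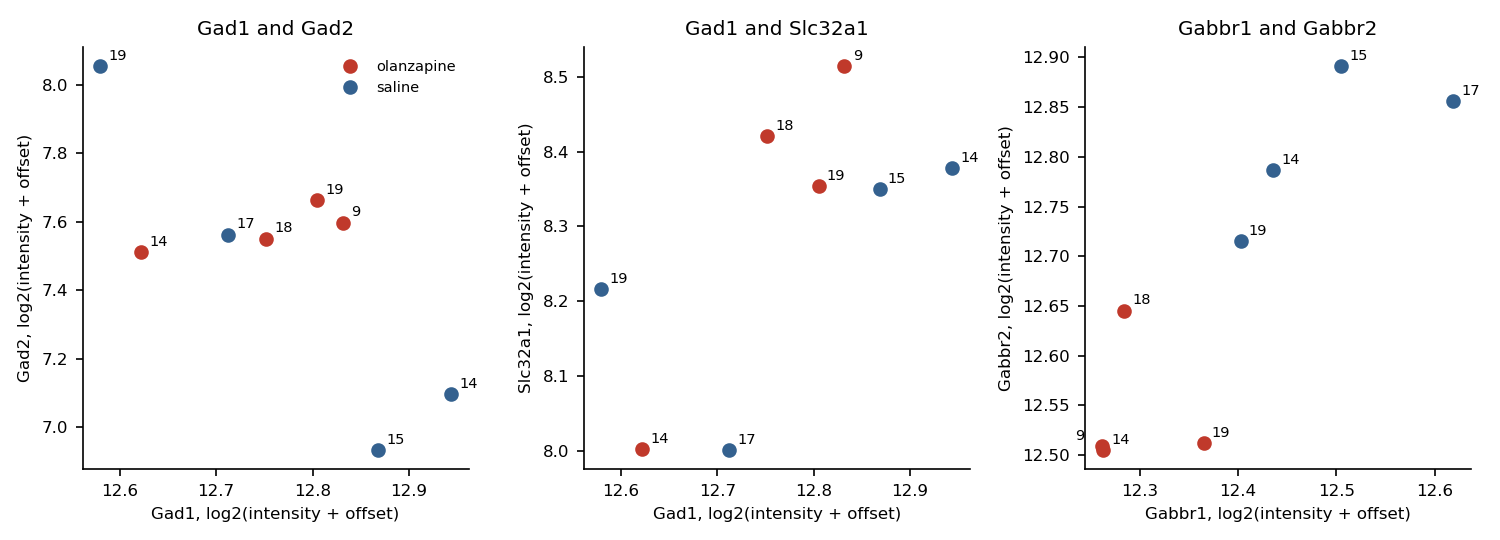
Log2(intensity + 63.4) of pairs of GABA genes on the 8 arrays, labelled by animal number, with olanzapine in red and saline in blue. Gad1 and Gad2 run largely in opposite directions among the saline arrays, with saline 19 at one end, and not among the olanzapine arrays. Gad1 and Slc32a1 run together, and the olanzapine arrays lie below the saline arrays on both axes for Gabbr1 and Gabbr2.

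The windows around the starts of Gad1 and Slc32a1 are given in the same form because these genes had the highest r of the 4 pairs as deposited over the 8 arrays (RefSeq, build GRCr8), with the same motifs in capitals.
Gad1, chr3:75777202-75777501, + strand: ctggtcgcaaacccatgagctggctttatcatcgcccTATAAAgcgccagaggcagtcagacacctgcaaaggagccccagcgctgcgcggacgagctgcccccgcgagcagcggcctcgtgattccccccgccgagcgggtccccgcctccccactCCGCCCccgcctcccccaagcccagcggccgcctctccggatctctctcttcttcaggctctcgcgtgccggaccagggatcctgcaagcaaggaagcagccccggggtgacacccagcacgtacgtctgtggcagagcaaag
Slc32a1, chr3:167686995-167687294, + strand: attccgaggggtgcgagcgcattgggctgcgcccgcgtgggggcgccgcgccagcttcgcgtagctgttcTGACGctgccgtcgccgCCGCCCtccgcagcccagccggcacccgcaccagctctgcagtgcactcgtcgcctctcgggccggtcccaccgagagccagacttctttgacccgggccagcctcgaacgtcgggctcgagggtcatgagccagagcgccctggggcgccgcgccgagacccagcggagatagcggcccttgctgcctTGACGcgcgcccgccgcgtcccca
Gad1 had 1 TATAAA match and 1 GC box, and Slc32a1 had 2 TGACG matches and 1 GC box. The Gad2 window held none of these letters, which says nothing about the factors that bind them, and that of Slc6a11 held 5 GC boxes. A window was at hand for 6 of the 7 genes.

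Abat, the enzyme gene of GABA breakdown, was read by 2 tested probe sets that pointed in opposite directions. On 1369799_at it was at 197, 157, 154 and 211 in olanzapine 9, 14, 18 and 19, and at 170, 224, 370 and 139 in saline 14, 15, 17 and 19. Saline 17 was the highest array and the others overlapped. The log2 difference was -0.20 (SE 0.23, limma adjusted p 0.865), and without saline 17 it was 0.020.

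On 1391365_at Abat was at 235, 138, 128 and 250 in olanzapine 9, 14, 18 and 19, and at 123, 143, 182 and 190 in saline 14, 15, 17 and 19. Here olanzapine 9 and 19 were above every saline array, and the other olanzapine arrays were among them. The log2 difference was 0.15 (SE 0.22, limma adjusted p 0.898), and r between the probe sets was 0.27. The remaining Abat probe set, 1375321_at, was removed by the filter, at 13.6 to 80.0 in olanzapine and 9.98 to 37.9 in saline. Log2 Abat minus log2 Gad1, taken from 1369799_at, differed by -0.17 within arrays, olanzapine minus saline (exact two-sided permutation p = 0.686).

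Slc6a11, the astrocytic GABA transporter gene, had 1 probe set, 1369715_at, which the filter removed as dim. It was listed at 23.1, 14.8, 22.1 and 29.0 in olanzapine 9, 14, 18 and 19, and at 8.74, 28.8, 13.7 and 26.9 in saline 14, 15, 17 and 19. The groups overlapped. The probe set lay at the 7.7th percentile of mean level, with every value below the added 63.4, so that the log2 scale compressed its differences. In the fit without a filter the log2 difference was 0.051 (SE 0.13, limma adjusted p 0.961).

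Other genes of GABA transport and metabolism had no called member either. Of 22 listed, 17 had a named probe set and 16 passed the filter, of which 0 passed the adjusted limma test, 7 were positive and 9 negative, with a median of -0.041 as deposited. At an unadjusted limma p under 0.05 there were 2 of 16, Glul and Slc1a1, against 8.32% of all tested probe sets. Glul, which encodes the astrocytic enzyme that turns glutamate into glutamine, was at 9484 ± 921 in olanzapine and 12459 ± 872 in saline (SD, n = 4 each), and Slc1a1, a neuronal glutamate transporter gene that can supply substrate for GABA, at 5933 ± 349 in olanzapine and 7077 ± 440 in saline. Both lay among the brightest 5% of probe sets, and 1 of 2 tested probe sets of each had the negative sign. Their log2 differences of -0.39 and -0.25 were -0.18 and -0.12 after quantile normalization. Aldh5a1, which follows Abat in GABA breakdown, differed by 0.029 (SE 0.10), and the amino acid transporter gene Slc38a2 by 0.16 (SE 0.11).

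Among 26 partners and effectors of the GABA-B receptor, 22 had a named probe set and 18 were tested, with 0 called by limma, 9 positive and 9 negative, and a median of -0.024. Kctd12, an auxiliary subunit gene of the receptor, was at 3790 ± 452 in olanzapine and 3483 ± 248 in saline (SD, n = 4 each), a log2 difference of 0.12 (SE 0.10). The potassium channel genes Kcnj3 and Kcnj6, whose channels the receptor opens, differed by 0.011 (SE 0.18) and 0.015 (SE 0.13), and Kcnj9 was removed as dim. The sign was positive in 1 of 2 tested probe sets of Kcnj3 and 3 of 3 of Kcnj6. At an unadjusted limma p under 0.05 there were 2 of 18, against 8.32% of all tested probe sets. They were the G protein subunit gene Gnb1 at -0.30 (SE 0.08), again among the brightest 5%, and the fusion ATPase gene Nsf at -0.29 (SE 0.12). After quantile normalization these were -0.083 and -0.23. For each of these genes, 2 of 3 tested probe sets had the negative sign. The calcium channel gene Cacna1a, of the presynaptic channel that the receptor inhibits, differed by 0.55 (SE 0.26, limma adjusted p 0.615). This came from 1 dim probe set, the only tested one of 5. It ran from 136 to 305 in olanzapine and from 49.1 in saline 19 to 199 in saline 15, and the groups overlapped.

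The cells that make GABA showed no called marker. Of the 22 tested interneuron markers 10 were positive and 12 negative, with a median of -0.025 as deposited and 0.0077 after quantile normalization. Their mean log2 value was 10.34 to 10.40 in olanzapine and 10.36 to 10.39 in saline. Pvalb, the marker of fast-spiking cells, was at 731 ± 139 in olanzapine and 759 ± 239 in saline, Sst at 2812 ± 262 in olanzapine and 3063 ± 545 in saline, and Vip at 1888 ± 206 in olanzapine and 1624 ± 173 in saline (SD, n = 4 each). The potassium channel gene Kcnc2 differed by -0.28 (SE 0.09), the cannabinoid receptor gene Cnr1 by -0.24 (SE 0.10) and the neuropeptide gene Cck by -0.16 (SE 0.08). After quantile normalization these were -0.12, -0.22 and -0.082, and Kcnc2 lay among the brightest 5%. None of these passed the adjusted limma test.

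Other cells of the dissection were described by the same kind of count. Median log2 differences as deposited were 0.011 for 19 excitatory neuron markers, -0.037 for 10 markers of striatal medium spiny neurons, which also use GABA, and -0.084 for 16 astrocyte markers. After quantile normalization they were 0.058, -0.058 and -0.025. With 1 array left out the astrocyte median ran from -0.14 without olanzapine 14 to -0.020 without olanzapine 19. The vesicular glutamate transporter gene Slc17a7 was at 2256 ± 57.5 in olanzapine and 2352 ± 197 in saline (SD, n = 4 each). Meningeal and choroid plexus markers were positive in 11 of 11 tested genes, against 56% of all tested probe sets. Their summed intensities were 5177 to 10403 in olanzapine and 3984 to 4552 in saline. Their median was 0.52 as deposited and 0.40 to 0.59 with 1 array left out. After quantile normalization it was 0.47, with 11 of 11 positive. The part of these markers in the GABA-B differences was not tested. Medians as deposited were 0.057 for oligodendrocyte, 0.018 for microglial and 0.064 for endothelial markers, and after quantile normalization 0.042, 0.041 and 0.0044. For these 3 lists and the excitatory and striatal ones, leaving out single arrays turned the sign. It also turned for the interneuron markers, from -0.052 to 0.051, and for the other genes of GABA transport and metabolism, from -0.059 to 0.041.

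Likeness of pattern was measured by Pearson's r over the log2 values of the 8 arrays, among 13104 tested probe sets with 1 symbol, and the 3 closest other genes of each member are named. For Gabbr2 these were Slc35a5 (r = 0.98), Stmn2 (0.97) and Kctd1 (0.96), and for Gabbr1 they were Kcnip4 (0.98), Higd2a (0.98) and Serinc1 (0.97). Adamtsl1 (r = 0.96), Srp72 (0.94) and Pnisr (0.93) were closest to Gad1, and Btbd9 (0.98), Hps6 (0.95) and Oip5-as1 (0.95) to Gad2. Dus2 (0.94), Ap1g2 (0.93) and Slc35e1 (0.93) were closest to Slc32a1, and Ankmy2 (0.93), LOC102555217 (0.93) and Exoc3l4 (0.92) to Abat. With so many probe sets and 8 arrays, high values of r arise easily, and all of the values share each array's scaling. Group means were not removed here, so r also takes in the difference between groups. Every gene named for Gabbr1 and Gabbr2 had a negative log2 difference, from -0.31 to -0.16.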

How the data were processed

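Expression was measured on 8 Affymetrix rat arrays, 1 per animal, 4 given olanzapine and 4 given saline. The deposited values are linear probe set intensities, which had a trimmed mean of 500.1 to 500.2 on every array once 2% was removed at each end, so that they had been scaled. For the software, the background correction and any detection calls, the sources used here give no name.

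Of 31042 probe sets that are not controls, 20826 had 1 symbol in the platform's 2016 annotation, 436 had several and 9780 had none, and symbols outside the member genes were updated by Entrez identifier from RefSeq (GRCr8). Only probe sets with 1 symbol were named. Values were taken as log2(intensity + 63.4), and probe sets at or below the 40th percentile of mean level were removed. The fit used limma 3.58.1 under R 4.3.3 (lmFit, eBayes with a mean-variance trend), two-sided, without covariates, with Benjamini-Hochberg adjustment over all 18625 probe sets. The fit was also run on simulated arrays with independent noise and added changes larger than the GABA-B differences. That run does not show whether differences as small as these could be called. For a gene with several probe sets, lists and pairs used the brightest tested one.

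The members, lists, pairs and tests were chosen with earlier results of these data known. In addition to the members, the rule named the 3 genes with the smallest p in each list and 10 genes fixed by symbol, and those of the lists of non-neuronal, excitatory and striatal markers are given here as medians. A planned within-array comparison is not reported here. Alternatives changed the added value, scaling, filter, array weights, number block and arrays used, 17 fits in all. Animal numbers 14 and 19 occur in both groups, but the labels describe separate, randomly assigned rats, so the fit has no block.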

Additional observations from a re-analysis of the deposited data

Results flagged for a closer look

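In 30 groups of 4 arrays, the 15 GABA probe sets in each of the groups, 2 held an array far from the other 3, and chance flags about 1 group in 20. Gabbr2 1387383_at was at 6343 in olanzapine 18, against 5750 to 5776 in olanzapine 9, 14 and 19, and all 4 of these values lay below the saline arrays. Gabbr1 1369371_a_at, a probe set removed as dim, was at 89.2 in olanzapine 14, against 34.1 to 41.0 in the other olanzapine arrays.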

How the results depend on the processing

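None of the 17 alternative fits called a GABA probe set. Over the whole array 0 probe sets were called by limma in most of them, 6 with the animal number as a replicate block, and 0 to 107 with 1 array left out, the highest count being without saline 19 and 1 without olanzapine 9. The differences of Gabbr2 1387383_at and Gabbr1 1375720_at kept their negative sign in every fit, from -0.32 (median centring) to -0.14 (quantile normalization) for Gabbr2 and from -0.25 to -0.084 in the same fits for Gabbr1. In the replicate block fit they were -0.24 and -0.11. That block leaves 1 residual degree of freedom, and the labels describe separate animals. Deviations of same-numbered arrays correlated at 0.075 (14) and 0.11 (19), against -0.13 to 0.13 for arrays of unlike number. So few same-numbered pairs cannot decide whether a block is needed.

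Small differences changed sign, and the cause was not tested. Gad1 1368344_at, -0.023 as deposited, was 0.12 after quantile normalization and 0.11 after cyclic loess. Gabbr1 1388030_a_at, 0.018 as deposited, was -0.036 after quantile normalization, -0.034 after median centring, -0.049 after cyclic loess and -0.035 with the replicate block. With that block Slc32a1 was -0.12, Abat 1369799_at 0.18, Gabbr1 1388039_a_at 0.036 and Gabbr2 1368952_at 0.21. Within arrays, Slc32a1 minus Gad1 was -0.078 after quantile normalization and -0.089 after cyclic loess, and Gad2 minus Gad1 -0.0026 after cyclic loess. With the replicate block Slc32a1 minus Gad1 was -0.071 and Abat minus Gad1 0.23. With 1 array left out the sign turned within these ranges: Gad1 -0.089 to 0.033, Abat 1369799_at -0.35 to 0.020, Gabbr1 1369372_at -0.17 to 0.11, Gabbr1 1388030_a_at -0.048 to 0.089, Gabbr1 1388039_a_at -0.080 to 0.041, Gabbr2 1368952_at -0.10 to 0.11, and Abat minus Gad1 -0.31 to 0.064. With pairings drawn across both groups, the correlation of Gad1 with Slc32a1 passed the adjustment over 4 pairs after quantile normalization, median centring and cyclic loess and without saline 19. That of Gad1 with Gad2 did so after median centring and without olanzapine 14, and that of Gabbr1 with Gabbr2 after median centring. Pairings within each group are given only as deposited, where the adjusted exact permutation values were 0.215 for Gad1 with Slc32a1 and 0.274 for Gad1 with Gad2. With 4 arrays a group precision is limited, and 4 of 15 probe sets were removed as dim.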
